A study of Rattus norvegicus with 300 samples.

Results

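Prelimbic and infralimbic cortex are neighbouring fields of the rat medial prefrontal cortex, and their gene expression was compared here between the 20 libraries labelled PLC and the 20 libraries labelled ILC from rats on Maltodextrin, Bupropion, Desipramine or Probiotics. The labels give only the abbreviations PLC and ILC, which are read here as prelimbic and infralimbic cortex. These 40 libraries were chosen by their region and treatment labels out of 300 in the series, with 5 libraries in each of the 8 groups. All rats were male Long Evans animals, 60 days old when they were obtained, and took their treatment in the drinking water for 3 weeks. Maltodextrin at 10 g/L was the carrier sugar given alone, the Bupropion group received 15 mg/kg/day of this inhibitor of dopamine and noradrenaline uptake, and the Desipramine group 7.5 mg/kg/day of this inhibitor of noradrenaline uptake. The Probiotics group received live bacteria, for which the labels give daily doses that disagree, so none is printed. Total RNA came from tissue punches of frozen sections that were pooled by region, and how many rats went into a pool is not stated in the labels. The p-values therefore measure only the spread between these libraries, which may be technical.

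In rodents the prelimbic field lies dorsal to the infralimbic field. Both send output from layers 5 and 6 to the striatum, thalamus, amygdala and brainstem, and both receive serotonin, noradrenaline and dopamine fibres. They are best known from fear learning, where prelimbic activity has been tied to the expression of fear and infralimbic activity to its extinction, and from work on stress and antidepressant action. Cortical fields of this kind are told apart by graded sets of genes for adhesion, guidance, channels, peptides and transcription factors rather than by single markers.

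The tissue labels were checked first with genes that mark other places. In the 8 groups compared, Slc17a7, the vesicular glutamate transporter of cortical excitatory neurons, had group means between 266 and 422 CPM (normalised counts, scaled to a common library size), and Dbh and Slc6a2, which mark noradrenaline neurons, had means of at most 1.35 and 0.654 CPM. The libraries labelled ILC in the FT group did not carry a cortical profile: Dbh stood at 232 ± 38.3 CPM (SD, n = 5), Slc6a2 at 107 ± 4.19 CPM and Slc17a7 at 16.2 ± 2.79 CPM. In the libraries labelled ILC of the Control group, read here as the rats on water, Slc17a7 stood at 28.7 ± 3.29 CPM against 619 ± 29.1 CPM in the Control libraries labelled PLC, and Actb, a cytoskeletal gene of all cells, at 289 ± 65.1 against 5070 ± 377 CPM. Both treatments were left out of the comparison. Total counts of the libraries compared ran from 7706928 to 18192931 in PLC (median 11570721.5) and from 6246390 to 16161371 in ILC (median 9083220).

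**Figure D1:**
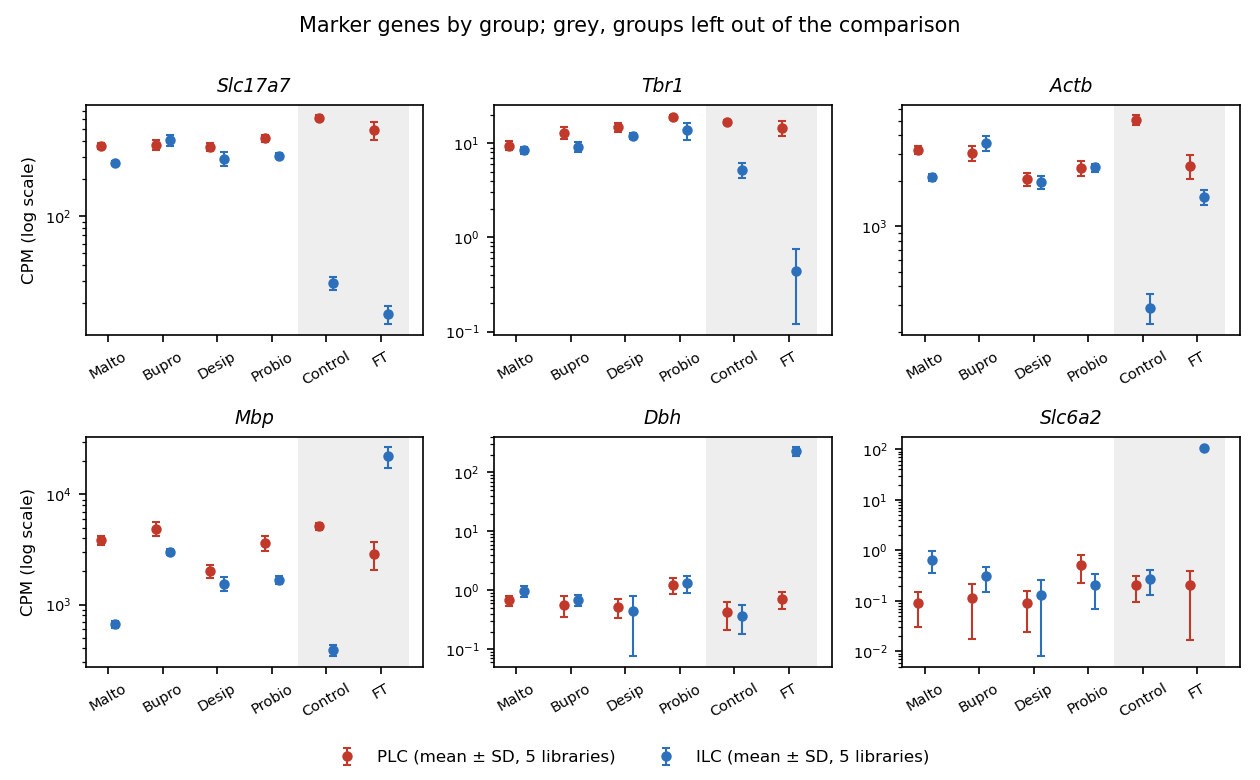
Mean normalised CPM (log scale) with SD of 6 marker genes in the 5 libraries of each region and treatment, including the Control and FT groups (grey) that were left out. In FT the libraries labelled ILC carried 232 CPM of Dbh, and in Control those labelled ILC carried 28.7 CPM of Slc17a7 against 619 CPM in PLC.

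Of 17337 gene symbols in the table, 12197 passed the filter on low counts and were tested. Genes counted as called where the adjusted p fell below 0.05 in edgeR's quasi-likelihood test of PLC against ILC with the treatment in the model, after Benjamini-Hochberg adjustment over all 12197 genes, and every adjusted p of a difference below comes from that test. With 6394 genes called (52.4% of those tested), most differences were small: the median size over the called genes was 0.23 on the log2 scale. Higher levels in PLC were called for 3557 genes (29.2%) and lower levels for 2837 genes (23.3%). Counts of called genes in the lists below are to be read against these shares. The difference had the same sign in all 4 treatments for 2400 of the genes called higher (19.7% of those tested) and for 1905 of the genes called lower (15.6%), while 2089 called genes did not have 1 sign throughout. Among called genes with 1 sign throughout, a difference past 2-fold was reached by 23 genes higher in PLC (0.189%) and 35 genes lower in PLC (0.287%). Differences below are log2 of PLC over ILC with their standard error, so a positive value is a higher level in PLC, and levels are normalised CPM over the 20 libraries of a region. In pooled tissue, fewer cells of a type and less RNA per cell cannot be told apart.

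For a few genes every one of the 20 libraries of a region lay above every one of the other. There were 10 genes of 12197 (0.082%) separated in this way with PLC on top, and 5 genes (0.041%) with ILC on top. The 10 were Nefm, Nefh, Stac2, Rbfox1, Dusp6, Atp2b2, Sorl1, Camta1, Tmem178a and Dusp3, and the 5 were Vwa3a, Gpc3, Myh11, Col3a1 and Vim. Nefm and Nefh encode the medium and heavy neurofilament subunits of the axonal cytoskeleton, Stac2 an adaptor protein of voltage-gated calcium channels, and Rbfox1 a neuronal splicing factor. Vwa3a encodes a von Willebrand factor A domain protein, Gpc3 a glypican that binds growth factors at the cell surface, Myh11 the myosin heavy chain of smooth muscle, Col3a1 a fibrillar collagen and Vim the intermediate filament vimentin. These 15 genes were singled out after their values were seen.

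Nefm stood at 166 to 265 CPM in PLC (median 226) and 106 to 141 CPM in ILC (median 115), a log2 difference of 0.86 ± 0.039 (edgeR adjusted p = 5.65e-22). The fitted difference in Nefm was 0.64 in Maltodextrin, 1.04 in Bupropion, 0.70 in Desipramine and 1.07 in Probiotics, and these 4 values rest on libraries that no other treatment shares. For Nefh the libraries ranged over 37.3 to 46.7 CPM in PLC (median 42.1) and 16.9 to 33.9 CPM in ILC (median 24.4), a difference of 0.78 ± 0.04 (edgeR adjusted p = 5.33e-20). The light subunit gene Nefl was higher in PLC by 0.55 ± 0.038 (edgeR adjusted p = 7.51e-16), and its libraries did not overlap within any treatment, although they did across treatments. All 3 neurofilament genes thus lay higher in PLC in each treatment.

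Stac2 ranged over 17.9 to 36.2 CPM in PLC (median 29) and 8.12 to 17 CPM in ILC (median 10.9), a difference of 1.25 ± 0.065 (edgeR adjusted p = 8.12e-20). The 5 Maltodextrin libraries held 17.9, 18.1, 19.1, 20.4 and 20.6 CPM in PLC against 8.93, 9.01, 9.55, 9.92 and 10.2 CPM in ILC, and the 5 Probiotics libraries 32.1, 32.8, 34, 34.6 and 36.2 CPM in PLC against 8.12, 9.07, 9.94, 10.8 and 10.9 CPM in ILC. The fitted difference was 1.78 in Probiotics and 1.01 to 1.12 in the other treatments (adjusted p of the interaction in edgeR = 1.83e-05). In the region labelled CGC, which was not part of the comparison, Stac2 stood at 38.9 to 68.4 CPM (median 53.5) in the same 4 treatments, above both regions.

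Vwa3a had the smallest p of all genes tested: it ranged over 13.7 to 22.9 CPM in PLC (median 20.3) and 25.7 to 65.6 CPM in ILC (median 42.6), a difference of -1.18 ± 0.046 (edgeR adjusted p = 6.12e-24). ILC Vwa3a was lowest in Bupropion, at 25.7, 27.1, 28.4, 32.7 and 34.6 CPM, and highest in Probiotics, at 54.4, 56, 59.6, 62.3 and 65.6 CPM, with the PLC libraries below in both. CGC held less Vwa3a than PLC in the same treatments, 6.64 to 16.8 CPM (median 9.7). Gpc3 followed the same order, with 11.5 to 16.8 CPM in PLC (median 13.5) and 21.2 to 32.4 CPM in ILC (median 26.6), and 3.13 to 9.63 CPM (median 7.1) in CGC. These orders over CGC, PLC and ILC were not tested.

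**Figure D2:**
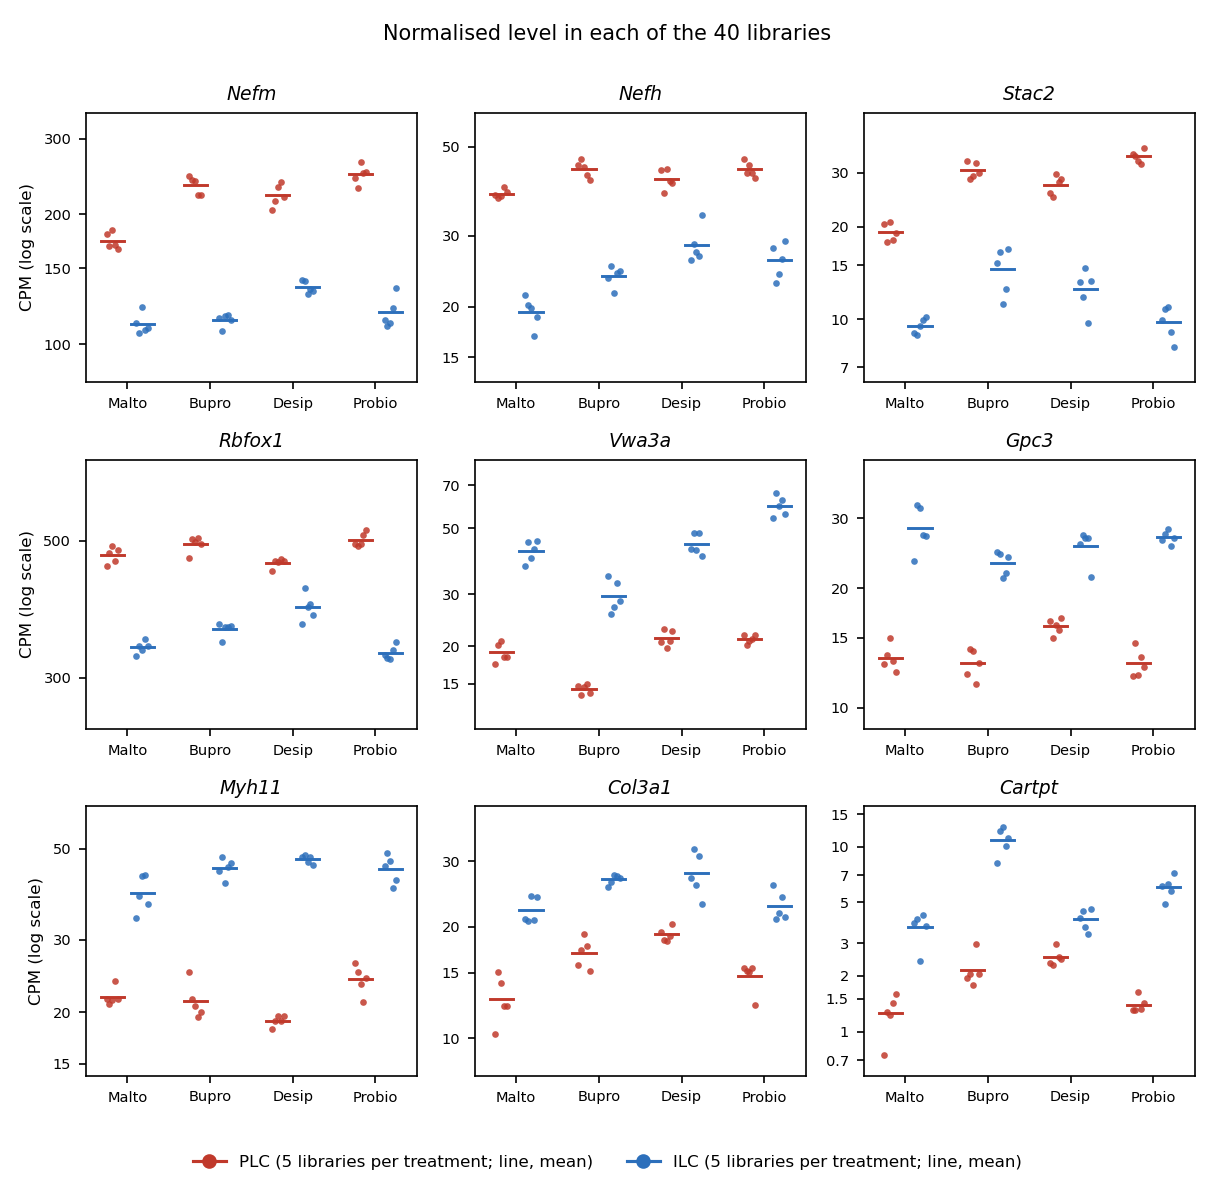
Normalised CPM (log scale) of 9 genes in each of the 40 libraries, by treatment, with the mean of each group as a line. Nefm, Nefh, Stac2 and Rbfox1 were higher in every PLC library than in any ILC library, Vwa3a, Gpc3, Myh11 and Col3a1 were lower in every PLC library, and Cartpt was lower in PLC within each treatment.

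Asking only that the regions do not overlap within any of the 4 treatments gave 182 genes higher in PLC (1.49% of those tested) and 68 genes lower in PLC (0.558%). Among the 182 were C1qtnf4, a secreted protein of the brain, at 30.3 to 147 CPM in PLC (median 53.6) and 11.6 to 60.2 CPM in ILC (median 21.9) (difference 1.27 ± 0.083, edgeR adjusted p = 1.56e-16), and Tubb4a, a tubulin of neurons and myelinating cells, at 780 CPM in PLC and 276 CPM in ILC in the median (difference 1.19 ± 0.071). For C1qtnf4 the 4 treatments ran from 1.22 in Probiotics to 1.35 in Maltodextrin (adjusted p of the interaction in edgeR = 0.955). Lyzl4, a lysozyme-like gene, was at 7.12 CPM in PLC and 2.61 CPM in ILC in the median (difference 1.21 ± 0.10), and Rtn4r, the Nogo receptor that limits axon growth, at 12.8 CPM in PLC and 6.97 CPM in ILC (difference 0.99 ± 0.10). Fxyd7, a regulator of the sodium pump, differed by 1.01 ± 0.095, and Nrgn, the calmodulin-binding protein neurogranin of excitatory neurons, by 0.88 ± 0.067. Among the 68 genes on the ILC side were Slc7a11, the cystine transporter of astrocytes and other cells (-0.50 ± 0.045), and Fabp7, a fatty acid binding protein of radial glia and astrocytes (-0.55 ± 0.025).

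Cartpt, the precursor of the peptide CART, and Mir708 had the lowest fitted differences of the genes named here. For Cartpt it was -1.72 ± 0.13 (edgeR adjusted p = 4.77e-15). Its level was low in absolute terms, 0.748 to 2.99 CPM in PLC (median 1.71) and 2.41 to 12.7 CPM in ILC (median 4.77). The Bupropion libraries held 1.78, 1.95, 2.04, 2.06 and 2.97 CPM in PLC and 8.12, 10.1, 11.2, 12.2 and 12.7 CPM in ILC, and the Desipramine libraries 2.29, 2.35, 2.47, 2.53 and 2.99 CPM in PLC and 3.36, 3.66, 4.1, 4.49 and 4.61 CPM in ILC. The regions did not overlap in either treatment, nor in the other two, but the difference was -2.34 in Bupropion and -0.68 in Desipramine (adjusted p of the interaction in edgeR = 7.51e-07). In the Control libraries, left out because their ILC samples stood apart, Cartpt was at 1.79 CPM in PLC and 12.4 CPM in ILC (medians).

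The promoter of Cartpt is shown because it holds a full cAMP response element, the palindrome TGACGTCA that CREB binds, and the same element stands in promoters of 3 activity-regulated genes that lay on the opposite side, Vgf, Ier2 and Dusp1. Each line gives the 250 bases before the gene's start in the direction of the gene, from RefSeq's GRCr8 assembly, with the element in capitals. The positions are chr2:32991236-32991485 (minus strand) for Cartpt, chr12:25277021-25277270 (minus strand) for Vgf, chr19:40399123-40399372 (plus strand) for Ier2 and chr10:17184603-17184852 (plus strand) for Dusp1.
Cartpt: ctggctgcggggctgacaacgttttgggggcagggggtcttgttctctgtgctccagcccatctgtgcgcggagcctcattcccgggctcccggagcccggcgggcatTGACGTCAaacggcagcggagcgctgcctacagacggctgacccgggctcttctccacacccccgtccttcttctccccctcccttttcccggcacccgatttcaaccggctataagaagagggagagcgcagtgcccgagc
Vgf: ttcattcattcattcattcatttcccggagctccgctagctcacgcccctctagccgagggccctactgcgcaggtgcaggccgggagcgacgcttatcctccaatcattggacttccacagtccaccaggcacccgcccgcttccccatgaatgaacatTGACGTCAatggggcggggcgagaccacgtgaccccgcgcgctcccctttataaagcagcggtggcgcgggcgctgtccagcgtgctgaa
Ier2: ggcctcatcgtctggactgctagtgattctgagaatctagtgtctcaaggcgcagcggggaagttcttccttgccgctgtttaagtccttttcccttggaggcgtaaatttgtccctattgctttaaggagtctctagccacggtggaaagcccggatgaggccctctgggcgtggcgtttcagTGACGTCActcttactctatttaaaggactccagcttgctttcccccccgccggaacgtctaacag
Dusp1: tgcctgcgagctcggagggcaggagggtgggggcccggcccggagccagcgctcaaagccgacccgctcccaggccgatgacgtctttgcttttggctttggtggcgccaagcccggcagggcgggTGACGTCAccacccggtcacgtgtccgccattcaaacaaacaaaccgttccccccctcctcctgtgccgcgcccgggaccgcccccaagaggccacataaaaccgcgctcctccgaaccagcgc
The element begins 142, 90, 66 and 124 bases before the start, in that order. It was found in 531 of 33469 such windows (1.59%), in 288 of the 9814 tested genes with a window (2.93%) and in 4 of the 15 activity-regulated genes with a window, the fourth being Btg2, which like Cartpt was called lower in PLC. The element is its own reverse complement, so both strands were read at once, and a match in the letters is a description of the sequence only.

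Mir708 was lower in PLC, with a difference of -1.72 ± 0.11 on the log2 scale (edgeR adjusted p = 1.03e-16), at 0.255 to 1.76 CPM in PLC (median 0.887) and 0.306 to 6.45 CPM in ILC (median 2.92). It is the gene of miR-708, and the counts come from total RNA at its annotation, so they are not a measurement of the mature miRNAs. Tenm4, the teneurin gene whose span holds Mir708 in the RefSeq table, differed by -0.045 ± 0.033 (edgeR adjusted p = 0.252). The mature sequences of both arms are shown with the seed, bases 2 to 8, in capitals, from RefSeq's GRCr8 assembly at chr1:160011168-160011190 and chr1:160011214-160011235 on the plus strand.
rno-miR-708-5p: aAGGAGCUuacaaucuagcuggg
rno-miR-708-3p: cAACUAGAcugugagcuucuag
In the Control libraries, whose ILC samples stood apart, Mir708 went the other way, with 0.692 CPM in PLC and 0.376 CPM in ILC (medians).

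Myh11, Actg2 and Cnn1, contractile genes of smooth muscle that were picked after their values were seen, were lower in PLC, as were 3 others from the list of endothelium and mural cells. Myh11 stood at 18.2 to 26.3 CPM in PLC (median 21.3) and 34 to 48.8 CPM in ILC (median 45.3) (difference -1.03 ± 0.043, edgeR adjusted p = 7.17e-23), and all 4 treatments lay between -1.31 and -0.84. The actin gene Acta2 differed by -0.80 ± 0.079, the actin-binding Tagln by -0.88 ± 0.048, the myosin light chain Myl9 by -0.72 ± 0.037, the enteric actin Actg2 by -1.55 ± 0.15 and the calponin Cnn1 by -1.13 ± 0.14, and only Cnn1 of these overlapped between the regions, in 1 of the treatments. Of 17 tested genes of endothelium and mural cells, 12 were lower in PLC, 1 was higher and 4 were not called, with a median difference of -0.15 against 0.0088 over all genes, where 23.3% were lower and 29.2% higher. Endothelial members were lower by less than the contractile ones: Pecam1, an adhesion molecule of endothelium, by -0.12 ± 0.047, and Tek, the angiopoietin receptor, by -0.26 ± 0.041. Cldn5, the tight junction protein of brain endothelium, was the 1 member higher in PLC (0.18 ± 0.044), but it was -0.078 in Desipramine. The call of Cldn5 was lost without the Maltodextrin libraries (0.10, edgeR adjusted p = 0.0778), and that of Pecam1 without the Bupropion libraries (-0.10, edgeR adjusted p = 0.132) and with no filter on low counts (-0.12, edgeR adjusted p = 0.0517).

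Genes of meninges and fibroblasts lay on the same side. Of 11 tested, 10 were lower in PLC, 0 were higher and 1 was not called, with a median of -0.37. Over all genes, 23.3% were lower and 29.2% higher. Col3a1 stood at 10.3 to 20.3 CPM in PLC (median 15.5) and 20.7 to 32.4 CPM in ILC (median 24.9) (difference -0.65 ± 0.045, edgeR adjusted p = 5.92e-16) and Col1a1 at 14 CPM in PLC and 20.7 CPM in ILC in the median (-0.56 ± 0.048). The matrix proteoglycan Dcn differed by -0.60 ± 0.056 and Aldh1a2, the retinaldehyde dehydrogenase of meninges, by -0.56 ± 0.068. Col1a2 was the member not called (0.045 ± 0.19, edgeR adjusted p = 0.855). The Control libraries were left out because their ILC samples stood apart, and PLC lay above ILC there for 54.0% of all genes tested. In them 5 of the 6 contractile genes named were lower in PLC, with log2 differences of -2.17 for Myh11, -2.43 for Myl9, -1.17 for Tagln, -2.67 for Actg2 and -1.70 for Cnn1, while Acta2 was at 2.26. In CGC, Myh11 stood at 26.6 to 38.8 CPM (median 34.4) and Col3a1 at 21.1 to 33.4 CPM (median 23.9), so that neither gene was graded from CGC over PLC to ILC as Vwa3a and Gpc3 were. How far vessels or meninges in the punches bear on other genes was not tested.

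Rsph10b, Drc1 and Tmem67, chosen after their values were seen, were also lower in PLC. Rsph10b, a radial spoke protein, differed by -0.69 ± 0.054, Drc1, a subunit of the dynein regulatory complex, by -0.55 ± 0.047, and Tmem67, a protein of the ciliary transition zone, by -0.55 ± 0.05, and the regions did not overlap in any of the 4 treatments for any of these. Of 6 markers of choroid plexus and ependyma, 1 was lower in PLC, 0 were higher and 5 were not called. The shares over all genes tested were 23.3% lower and 29.2% higher. Ttr, the transthyretin of choroid plexus, was at 21.5 CPM in PLC and 27.6 CPM in ILC in the median (difference -0.18 ± 0.088, edgeR adjusted p = 0.0802), and passed without ILC Bupropion replicate 1 or PLC Bupropion replicate 5 (edgeR adjusted p down to 0.0184), and without all Bupropion or all Probiotics libraries (-0.24 and -0.29, edgeR adjusted p = 0.0152 and 0.0372). Ttr also passed in the model of group means (edgeR adjusted p = 0.0355) and with the replicate number as a block (edgeR adjusted p = 0.0142).

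Myelin genes were higher in PLC. All 14 tested genes of oligodendrocytes and myelin were called higher, with a median of 0.53, against 29.2% of all genes tested, and 9 of them had the same sign in all 4 treatments. Mag, the myelin-associated glycoprotein, stood at 21.1 to 55.7 CPM in PLC (median 38.1) and 7.45 to 32.2 CPM in ILC (median 26.1), a difference of 0.83 ± 0.061 (edgeR adjusted p = 4.97e-15), and was the 1 member without overlap in any treatment. Mog, a glycoprotein of the myelin surface, differed by 0.44 ± 0.046, and Cldn11, the tight junction protein of myelin, by 0.55 ± 0.058. Mbp, the myelin basic protein, had the widest spread between treatments, from 0.39 in Desipramine to 2.54 in Maltodextrin (adjusted p of the interaction in edgeR = 1.53e-15). In Maltodextrin the Mbp libraries held 3444, 3691, 3742, 3904 and 4467 CPM in PLC and 586, 660, 668, 687 and 706 CPM in ILC. In Desipramine they held 1773, 1814, 1938, 2144 and 2448 CPM in PLC and 1200, 1485, 1580, 1640 and 1791 CPM in ILC, which overlapped. Mean Mbp in ILC was 661 CPM in Maltodextrin against 1540 to 3010 CPM in the other treatments compared. In PLC it was 3850 CPM in Maltodextrin and 2020 to 4890 CPM in the others. The Control ILC libraries, which stood apart, held 382 CPM. What made Mbp low in ILC of Maltodextrin was not tested.

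The median over the 14 myelin genes was 0.94 in Maltodextrin, 0.63 in Bupropion, 0.56 in Probiotics and 0.038 in Desipramine. Genes of oligodendrocyte precursors were called higher for 6 of 10 and lower for 1, against 29.2% higher and 23.3% lower over all genes. Sox10, a transcription factor of the lineage, differed by 0.45 ± 0.072, Gpr17, a receptor of committed precursors, by 0.50 ± 0.11, and Pdgfra, the growth factor receptor of precursors, by -0.22 ± 0.032. The other glia were mixed: of 14 astrocyte genes 4 were higher, 3 lower and 7 not called (median 0.011), and of 14 microglia genes 6 were higher, 1 lower and 7 not called (median 0.021). Agt, the angiotensinogen of astrocytes, was higher (0.29 ± 0.058), Aqp4, their water channel, lower (-0.22 ± 0.027), and Trem2, a receptor of microglia, higher (0.37 ± 0.053).

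Activity-regulated genes, whose transcription follows neuronal firing and plasticity, were higher in PLC. Of 20 tested, 17 were called higher, 1 lower and 2 not called, with a median of 0.43, and 14 of the 17 had the same sign in all 4 treatments, against 29.2% called higher and 19.7% called higher with the same sign over all genes tested. Vgf, a secreted neuropeptide precursor, stood at 19 to 50.1 CPM in PLC (median 29.4) and 9.86 to 28.8 CPM in ILC (median 18.2), a difference of 0.72 ± 0.049 (edgeR adjusted p = 4.77e-16), and its libraries did not overlap in any treatment. Egr1, a zinc finger factor, was at 53.2 to 180 CPM in PLC (median 92) and 21.8 to 99.1 CPM in ILC (median 54.3) (0.89 ± 0.07, edgeR adjusted p = 4.11e-14), and again no treatment overlapped. Arc, a protein of recently active dendrites, was at 12.3 CPM in PLC and 5.7 CPM in ILC in the median (0.99 ± 0.091). For Egr1 the difference was 1.38 in Desipramine and 0.40 in Bupropion (adjusted p of the interaction in edgeR = 1.18e-06).

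The median over the activity-regulated genes was 0.52 in Maltodextrin, 0.27 in Bupropion, 0.42 in Desipramine and 0.47 in Probiotics, and in the Control libraries, whose ILC samples stood apart, it was 1.78 against 0.091 over all genes. Fos, the prototype of this group, differed by 0.62 ± 0.058 (edgeR adjusted p = 4.21e-12), with 0.85 in Maltodextrin and 0.46 in Bupropion. Ier2 differed by 0.59 ± 0.09, Dusp1, a phosphatase of MAP kinases, by 0.43 ± 0.052, and Bdnf, the neurotrophin, by 0.19 ± 0.022. Btg2 was the member called lower (-0.14 ± 0.049), but it was 0.10 in Maltodextrin, and the call was lost without the Bupropion libraries (-0.06, edgeR adjusted p = 0.361) or the Probiotics libraries (-0.12, edgeR adjusted p = 0.113). Fosb (0.10 ± 0.11, edgeR adjusted p = 0.465) and Egr2 (0.15 ± 0.07, edgeR adjusted p = 0.079) were not called, although Egr2 passed without ILC Maltodextrin replicate 3, PLC Maltodextrin replicate 5 or ILC Bupropion replicate 3 (edgeR adjusted p down to 0.0316) and without all Maltodextrin libraries (0.26, edgeR adjusted p = 0.00622). Egr2 also passed in the model of group means (edgeR adjusted p = 0.036). Dusp6, one of the 10 genes with complete separation, is a phosphatase induced by ERK signalling and stood at 45.8 to 64.5 CPM in PLC (median 50.1) and 32.3 to 43.1 CPM in ILC (median 36.7) (0.51 ± 0.029).

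Markers of parvalbumin interneurons, the fast-spiking basket cells of cortex, were higher in PLC for 9 of 12 genes, lower for 1 and not called for 2, with a median of 0.27, against 29.2% higher and 23.3% lower over all genes. Pvalb itself stood at 188 to 286 CPM in PLC (median 225) and 120 to 189 CPM in ILC (median 152), a difference of 0.62 ± 0.026 (edgeR adjusted p = 1.41e-22), and lay between 0.48 and 0.71 in the 4 treatments without overlap in any. Kcnc1, the fast potassium channel of these cells, differed by 0.39 ± 0.033, Vamp1, a vesicle protein of their terminals, by 0.34 ± 0.021, and Syt2, a fast calcium sensor of release, by 1.01 ± 0.10. The member called lower was Erbb4, the neuregulin receptor (-0.12 ± 0.048), a call that was lost without PLC Maltodextrin replicate 5 or ILC Desipramine replicate 4 (edgeR adjusted p up to 0.0563). Erbb4 was 0.17 in Bupropion, and it was not called without the Maltodextrin (-0.08), Desipramine (-0.07) or Probiotics (-0.14) libraries (edgeR adjusted p = 0.273, 0.338 and 0.0521). Lhx6, a transcription factor shared by parvalbumin and somatostatin cells, was not called (0.06 ± 0.071, edgeR adjusted p = 0.494), and Gad1 and Gad2, the enzymes of GABA synthesis in all inhibitory neurons, were at 0.03 ± 0.028 and -0.024 ± 0.037. Hapln4, a link protein of perineuronal nets, stood at 36.4 to 69.6 CPM in PLC (median 56.3) and 21.9 to 48.4 CPM in ILC (median 35.2) (0.61 ± 0.033, edgeR adjusted p = 3.49e-19), while Acan, the aggrecan core of those nets, was not called (0.10 ± 0.14).

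Of 10 somatostatin interneuron genes, 4 were higher, 3 lower and 3 not called, against 29.2% higher and 23.3% lower over all genes. The related peptides of these cells were both higher: Sst, somatostatin, was at 227 CPM in PLC and 120 CPM in ILC in the median (0.87 ± 0.074, edgeR adjusted p = 3.57e-13) and Cort, cortistatin, at 26.3 CPM in PLC and 13.7 CPM in ILC (0.88 ± 0.073). Chodl, a marker of long-range somatostatin cells, and Nos1, the neuronal nitric oxide synthase in them, were lower (-0.44 ± 0.12 and -0.18 ± 0.073). The call of Nos1 was lost without PLC Bupropion replicate 3 or 4, ILC Bupropion replicate 4 or ILC Probiotics replicate 3 (edgeR adjusted p up to 0.0636), and without all libraries of Bupropion, Maltodextrin or Probiotics (-0.11, -0.18 and -0.21, edgeR adjusted p = 0.248, 0.0631 and 0.0557). Genes of interneurons from the caudal ganglionic eminence were higher for 4 of 12, lower for 4 and not called for 4. Cck, the cholecystokinin precursor, was at 2880 CPM in PLC and 1280 CPM in ILC (0.72 ± 0.10), and Adarb2, an RNA-binding protein that marks these cells, was at 8.73 CPM in PLC and 14.9 CPM in ILC (-0.68 ± 0.074). Which cells of the punches held the Cck counted here was not tested.

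Among 21 neuropeptide precursors tested, 8 were higher in PLC, 4 were lower and 9 were not called, against 29.2% higher and 23.3% lower over all genes. Beside Sst, Cort and Cck, the higher ones included Crh, the stress peptide corticotropin-releasing hormone (0.46 ± 0.062), Tac3, neurokinin B (0.40 ± 0.053), and Pnoc, nociceptin (0.42 ± 0.075). Below them, Cartpt and Pdyn, the dynorphin precursor (-0.22 ± 0.034), were lower in all 4 treatments. Npy, neuropeptide Y, was not called at 0.832 CPM in PLC and 0.619 CPM in ILC (0.30 ± 0.21, edgeR adjusted p = 0.229). These Npy values rest on few reads a library, so the missing call says little. Why Npy was counted so low was not tested. Of 21 receptors for peptides, 4 were higher, 6 lower and 11 not called. Ntsr1, the neurotensin receptor of layer 6 neurons, stood at 0.391 to 2.05 CPM in PLC (median 1.37) and 1.59 to 4.27 CPM in ILC (median 2.59), a difference of -1.06 ± 0.11 (edgeR adjusted p = 1.25e-10). Adcyap1r1, the PACAP receptor, was lower (-0.25 ± 0.023), as were Npy1r and Npy2r for neuropeptide Y (-0.26 ± 0.03 and -0.93 ± 0.17), while Tacr3, the receptor of neurokinin B, was higher (0.41 ± 0.044), like Sstr1 and Sstr3 for somatostatin (0.34 ± 0.088 and 0.23 ± 0.045).

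Each list of layer markers held genes called in both directions, where 29.2% of all genes tested were higher and 23.3% lower. For layer 6 corticothalamic neurons, 4 of 6 genes were higher and 2 lower: Rprm (0.85 ± 0.08), Syt6 (0.65 ± 0.072), Tle4 (0.32 ± 0.037) and Foxp2 (0.36 ± 0.042) were higher, and Ntsr1 and Sla (-0.47 ± 0.15) were lower. The higher 4 shared a small difference in Desipramine, at 0.11, 0.13, 0.11 and 0.046, against 1.09, 0.98, 0.25 and 0.33 in Maltodextrin. Interaction tests passed for all 4, with edgeR adjusted p of 8.86e-09 for Rprm, 0.000882 for Syt6, 0.000437 for Tle4 and 4.25e-05 for Foxp2. Ntsr1 did not follow them, at -1.34 in Desipramine. Sla was 0.013 in Desipramine, and its call was lost without the Maltodextrin (-0.39) or Probiotics (-0.35) libraries (edgeR adjusted p = 0.0793 and 0.104).

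For layer 6b, claustrum and endopiriform nucleus, deep structures that border the cortex, 4 of 10 genes were higher, 4 lower and 2 not called. The shares over all genes tested were 29.2% higher and 23.3% lower. Nxph4, a marker of layer 6b at 0.606 CPM in PLC and 0.209 CPM in ILC in the median, differed by 1.46 ± 0.24 (edgeR adjusted p = 1.72e-06), Cplx3, a complexin of layer 6b, by 0.61 ± 0.058, and Nr4a2 by 0.43 ± 0.053. Gng2, a G protein subunit strong in claustrum, was lower (-0.23 ± 0.019), like Gnb4 (-0.23 ± 0.04) and Synpr (-0.21 ± 0.026). In layer 5 the list of subcortically projecting neurons gave 8 of 13 higher, 4 lower and 1 not called, with Pou3f1 at 0.46 ± 0.055 and Vwc2l at -0.72 ± 0.059. The list for layer 4 neurons and layer 5 neurons projecting within the cerebrum gave 4 of 5 higher and 1 lower. From that list Rspo1, a Wnt agonist, stood at 0.579 to 2.99 CPM in PLC (median 1.77) and 0.0984 to 1.51 CPM in ILC (median 0.687) (1.44 ± 0.17, edgeR adjusted p = 4.31e-09). Upper layer genes were higher for 4 of 10 and lower for 2, with Lamp5, a membrane protein of upper layers, at 0.33 ± 0.028 and Calb1, the calcium buffer calbindin, at -0.27 ± 0.027, neither overlapping in any treatment.

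Transcription factors of cortical areas and layers were higher in PLC for 18 of 32 genes, lower for 6 and not called for 8. Over all genes tested, 29.2% were higher and 23.3% lower. Neurod2, a factor of excitatory neurons, was at 16.5 CPM in PLC and 10.4 CPM in ILC (0.52 ± 0.06, edgeR adjusted p = 1.73e-09), Tbr1, a factor of deep layers, at 14.3 CPM in PLC and 10.5 CPM in ILC (0.38 ± 0.057) and Etv5, an effector of FGF signalling, at 147 CPM in PLC and 117 CPM in ILC (0.32 ± 0.022). On the ILC side stood Bhlhe22 (-0.39 ± 0.051), Nr2f2, also called COUP-TFII (-0.38 ± 0.058), and Neurod1 (-0.34 ± 0.04). Nr2f1, the related COUP-TFI, was not called (0.068 ± 0.037, edgeR adjusted p = 0.114), but passed without PLC Maltodextrin replicate 3 (edgeR adjusted p = 0.041), without all Maltodextrin libraries (0.14, edgeR adjusted p = 0.00162) and in the model of group means (edgeR adjusted p = 0.0308).

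Of 47 guidance ligands and receptors, 19 were higher, 13 lower and 15 not called, where 29.2% of all genes were higher and 23.3% lower. Sema7a, a membrane-bound semaphorin, stood at 28.6 to 84.5 CPM in PLC (median 67.1) and 13.5 to 58.1 CPM in ILC (median 39.1) (0.79 ± 0.049, edgeR adjusted p = 2.59e-17), and Sema3c, a secreted one, differed by 0.39 ± 0.03, both without overlap in any treatment. The ephrin receptors Epha3 (-0.53 ± 0.07) and Epha5 (-0.23 ± 0.025) were lower, and so was the teneurin Tenm2 (-0.21 ± 0.025). Of 19 cadherins and protocadherins, 6 were higher and 7 lower. Cdh13, a cadherin without a cytoplasmic tail, was lower (-0.35 ± 0.025) and Pcdh7 higher (0.33 ± 0.033), both without overlap in any treatment, and Cdh22 was higher by 0.55 ± 0.065.

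In the retinoic acid pathway, 8 of 17 genes were higher, 5 lower and 4 not called, where 29.2% of all genes were higher and 23.3% lower. Cyp26b1, which degrades retinoic acid, was at 26.5 CPM in PLC and 19.2 CPM in ILC (0.71 ± 0.054, edgeR adjusted p = 1.47e-14), and Aldh1a1, which makes it, was higher by 0.38 ± 0.04, while Aldh1a2, which also makes it, was lower (-0.56 ± 0.068). Among 25 growth factors and related genes, 8 were higher, 7 lower and 10 not called. Ntf3, neurotrophin 3, stood at 6.73 to 11 CPM in PLC (median 8.29) and 10.4 to 21.1 CPM in ILC (median 14.2) (-0.78 ± 0.054, edgeR adjusted p = 6.67e-16), and its receptor gene Ntrk3 was lower as well (-0.26 ± 0.026), both without overlap in any treatment. Igfbp4 and Igfbp6, which bind insulin-like growth factors, were higher (0.73 ± 0.047 and 0.78 ± 0.09).

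Of 46 potassium channel genes, 24 were higher, 4 lower and 18 not called (median 0.12), and of 31 synaptic vesicle and release genes 23 were higher, 4 lower and 4 not called (median 0.28), against 29.2% higher and 23.3% lower over all genes. Kcns1, a modifying subunit, was at 3.74 to 7.47 CPM in PLC (median 4.45) and 1.1 to 4.17 CPM in ILC (median 2.49) (0.98 ± 0.088, edgeR adjusted p = 1.41e-12). Kcnn3, a calcium-activated channel, was lower (-0.41 ± 0.068). Scn4b, a sodium channel beta subunit, was higher by 0.72 ± 0.069, while the pore genes Scn1a and Scn2a were at 0.01 ± 0.058 and 0.044 ± 0.03. Cplx1, a complexin, differed by 0.58 ± 0.044 and Syt1, the main calcium sensor of release, by 0.33 ± 0.025, neither overlapping in any treatment.

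Receptors for the monoamines on which the drugs act were called in both directions, where 29.2% of all genes tested were higher and 23.3% lower. Of 11 serotonin receptor genes, 5 were lower, 2 higher and 4 not called. Htr1a stood at 2.41 to 8.02 CPM in PLC (median 5.32) and 2.24 to 8.16 CPM in ILC (median 6.56) (-0.20 ± 0.073, edgeR adjusted p = 0.0218), Htr5a differed by -0.21 ± 0.088 and Htr2b by -0.47 ± 0.19, and Htr6 and Htr1f were higher (0.43 ± 0.12 and 0.35 ± 0.11). Htr2a was not called (-0.056 ± 0.066, edgeR adjusted p = 0.486). Both dopamine receptor genes tested were lower: Drd1 stood at 8.66 to 15.6 CPM in PLC (median 13.3) and 11 to 19.1 CPM in ILC (median 15.9) (-0.29 ± 0.049, edgeR adjusted p = 2.98e-06) with -0.25 to -0.35 in the 4 treatments, and Drd2 differed by -0.18 ± 0.078 but was 0.20 in Probiotics. Of 7 adrenergic receptor genes, 2 were higher, 2 lower and 3 not called, with Adra1b at 2.39 to 7.07 CPM in PLC (median 5.34) and 1.6 to 4.45 CPM in ILC (median 3.42) (0.73 ± 0.079, edgeR adjusted p = 2.3e-10) and Adra1d at 0.31 ± 0.035, and Adra2c at -0.24 ± 0.078 and Adrb3 at -0.69 ± 0.28. Levels were low for Htr2b and Adrb3 (mean log2 CPM -0.13 and -0.56 over the 40 libraries) and for Htr6 and Htr1f (0.94 and 1.28). The calls of Drd2, Htr5a, Adrb3 and Htr2b lay near the threshold: each was lost without any one of 25, 21, 10 and 5 of the 40 libraries, in that order. The highest edgeR adjusted p was 0.0783 for Drd2 (without ILC Desipramine replicate 1), 0.0748 for Htr5a (without ILC Bupropion replicate 4), 0.0649 for Adrb3 (without ILC Maltodextrin replicate 2) and 0.0607 for Htr2b (without ILC Desipramine replicate 2). With all libraries of 1 treatment left out, calls were lost for Drd2 without Maltodextrin, Bupropion or Desipramine (edgeR adjusted p up to 0.33), for Htr5a without Maltodextrin, Desipramine or Probiotics (up to 0.154) and for Htr2b without Bupropion, Maltodextrin or Probiotics (up to 0.0918). Htr1a (-0.15, edgeR adjusted p = 0.154) and Htr1f (0.30, edgeR adjusted p = 0.0812) were not called without Probiotics, nor Adra2c without Maltodextrin (-0.20, edgeR adjusted p = 0.0836).

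Drd1 is also a marker of striatal projection neurons, and the striatum list gave 5 of 17 higher, 7 lower and 5 not called (median -0.017). Ppp1r1b and Rasd2, which striatum and cortex both express, were higher without overlap in any treatment (0.51 ± 0.041 and 0.52 ± 0.042), while Gpr6 was at -0.34 ± 0.11 (not called without Bupropion, edgeR adjusted p = 0.0846) and Rxrg, a retinoid receptor, at -0.34 ± 0.053. Adora2a, the adenosine receptor of one striatal pathway, was not called (0.15 ± 0.091, edgeR adjusted p = 0.151), but passed without Bupropion (0.27, edgeR adjusted p = 0.0477) and in the model of group means (edgeR adjusted p = 0.0393). Of 5 septum genes tested, 4 were lower in PLC and 0 higher, where 23.3% of all genes were lower and 29.2% higher. Zic4, a zinc finger factor, stood at 1.28 to 2.71 CPM in PLC (median 2.09) and 2.54 to 4.97 CPM in ILC (median 3.63) (-0.77 ± 0.088, edgeR adjusted p = 1.09e-09). What share of such cells the punches held was not tested.

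Acetylcholine receptors and acetylcholinesterase were higher for 6 of 12 genes and lower for 2, against 29.2% higher and 23.3% lower over all genes. Ache, which breaks acetylcholine down, stood at 9.15 to 25.2 CPM in PLC (median 15.7) and 5.05 to 17.6 CPM in ILC (median 8.72) (0.75 ± 0.069, edgeR adjusted p = 3.37e-12), without overlap in any treatment, Chrna4 differed by 0.43 ± 0.059 and Chrna7 by -0.31 ± 0.10. The call of Chrna7 was lost without the Desipramine or the Probiotics libraries (edgeR adjusted p = 0.0549 and 0.0816). Chrm1, the main muscarinic receptor of cortex, was higher by 0.44 ± 0.072, with 0.94 in Desipramine and 0.0022 in Bupropion (adjusted p of the interaction in edgeR = 4.41e-09). Dagla, which makes the endocannabinoid 2-arachidonoylglycerol, stood at 84.8 CPM in PLC and 53.3 CPM in ILC (0.61 ± 0.055), and Cnr1, the receptor, differed by 0.12 ± 0.022. Fkbp5, a chaperone gene induced by glucocorticoids, was higher by 0.16 ± 0.036 (edgeR adjusted p = 0.000209), and Nr3c2, the mineralocorticoid receptor, lower (-0.23 ± 0.038).

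Receptors for glutamate and GABA were called in both directions, as were all genes tested (29.2% higher and 23.3% lower). Of 17 ionotropic glutamate receptor genes, 7 were higher, 5 lower and 5 not called: Grin1, the obligatory NMDA subunit, stood at 66.3 to 156 CPM in PLC (median 132) and 49.7 to 122 CPM in ILC (median 86.6) (0.50 ± 0.049, edgeR adjusted p = 2.2e-11), Grik5 was higher by 0.48 ± 0.049, and Gria1, an AMPA subunit, was lower (-0.23 ± 0.027). Of the 7 metabotropic receptor genes, 4 were higher and 3 lower, with Grm4 at 0.97 ± 0.13 and Grm5 at 40.6 to 84.8 CPM in PLC (median 69.2) and 47.6 to 119 CPM in ILC (median 95) (-0.41 ± 0.035). Among 14 GABA receptor genes, 5 were higher and 6 lower. Gabra5, the alpha 5 subunit of tonic inhibition, was at 139 to 190 CPM in PLC (median 160) and 97.2 to 159 CPM in ILC (median 127) (0.34 ± 0.026, edgeR adjusted p = 1.84e-14) and Gabra2 at 119 to 190 CPM in PLC (median 156) and 128 to 252 CPM in ILC (median 209) (-0.36 ± 0.035, edgeR adjusted p = 2.47e-11).

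Of 24 cytosolic ribosomal protein genes, 6 were higher, 2 lower and 16 not called (median 0.055), and of 23 nuclear subunits of oxidative phosphorylation 15 were higher, 2 lower and 6 not called (median 0.16). The latter median was 0.35 in Maltodextrin and 0.0077 in Bupropion. Over all genes tested, 29.2% were higher and 23.3% lower. Cox4i1, a subunit of complex IV, differed by 0.39 ± 0.058. None of 19 genes of antigen presentation and interferon response was higher and 3 were lower, among them Ifitm3 (-0.47 ± 0.04).

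**Figure D3:**
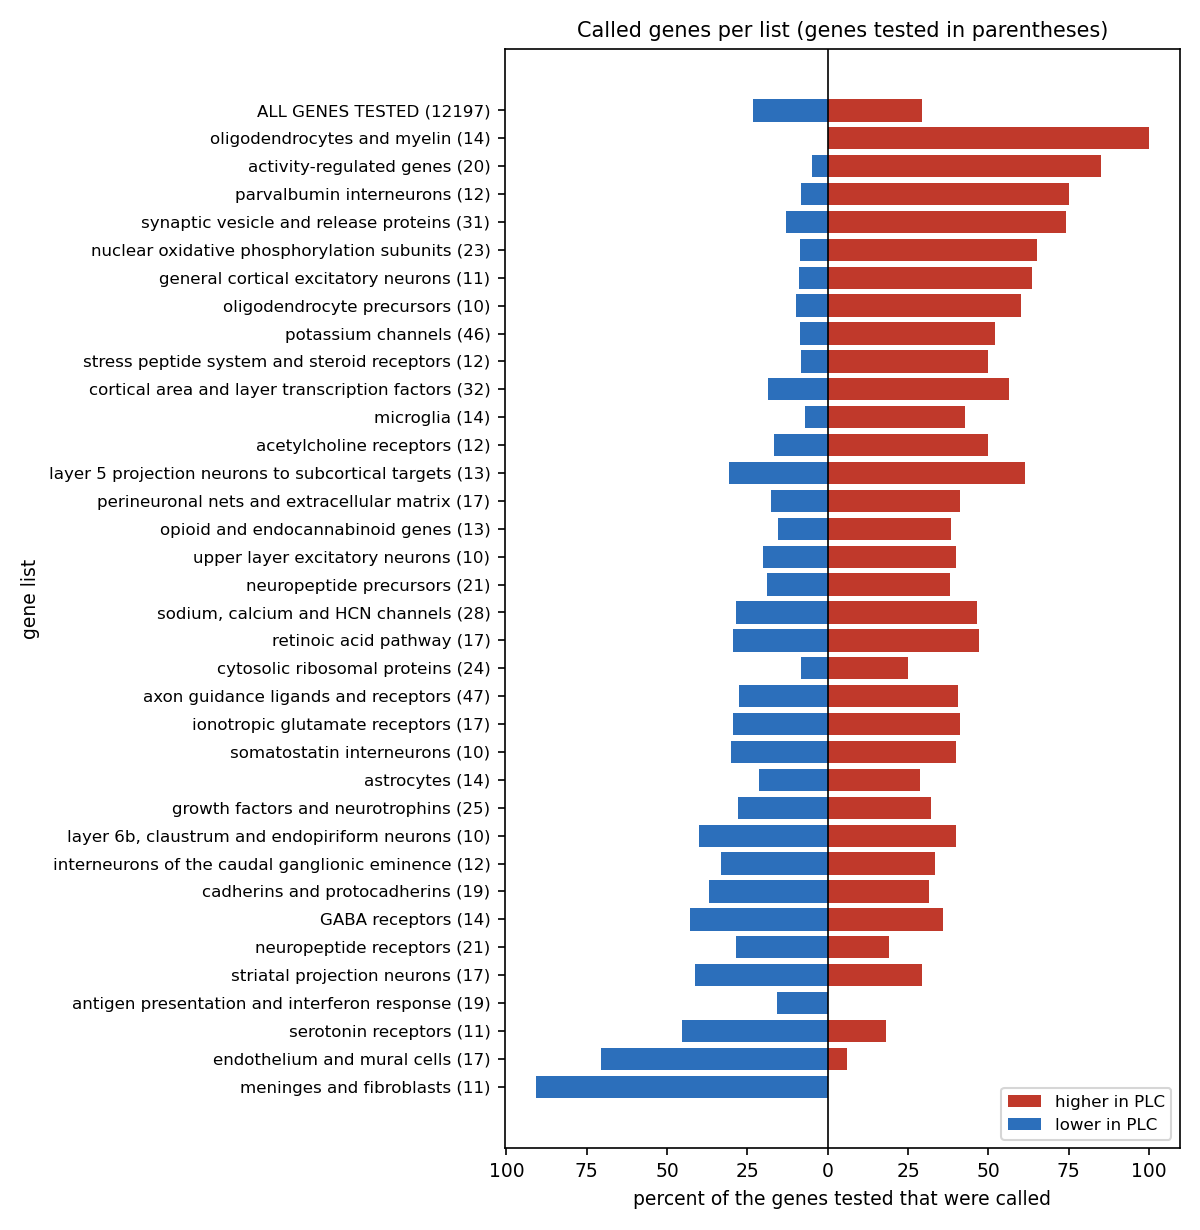
Percent of the tested genes of each list that were called higher (red) or lower (blue) in PLC, for lists with at least 10 tested genes and for all 12197 genes. All 14 myelin genes were higher and 10 of 11 genes of meninges and fibroblasts were lower, against 29.2% higher and 23.3% lower over all genes.

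Among the 24 genes with the largest fitted differences, several rested on few libraries or on low counts. Slc5a12, a lactate transporter, Adgrg7, an adhesion receptor, and Creb3l3, a transcription factor of liver and intestine, changed between near 0 and several CPM from library to library. Adgrg7 was 0 in all 5 ILC libraries of Maltodextrin and of Probiotics, and the Maltodextrin PLC libraries held 5.12, 5.89, 6.82, 7.03 and 10.1 CPM. In Desipramine it stood at 0, 0.0712, 8.97, 9.78 and 11.2 CPM in PLC and 0, 0, 0, 11.6 and 12.6 CPM in ILC, so that the same group held libraries at 0 and libraries above 8 CPM. Slc5a12 and Creb3l3 were high in the same Desipramine libraries as Adgrg7, and in the Control libraries Slc5a12 lay higher in ILC (7.44 CPM) than in PLC (0.442 CPM; medians). Their fitted values, 1.72 ± 0.37, 1.29 ± 0.51 and 1.14 ± 0.39, average over such groups. Without the Maltodextrin libraries none of Adgrg7, Creb3l3 and Trappc2b was called, at 0.55, 0.58 and 0.46 (edgeR adjusted p = 0.463, 0.3 and 0.181), and the call of Adgrg7 was also lost without ILC Maltodextrin replicate 1, 3 or 5, ILC Desipramine replicate 1 or PLC Desipramine replicate 4 (edgeR adjusted p up to 0.0526). Trappc2b (1.06 ± 0.26) was highest in the same Desipramine libraries in PLC.

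Of the others, Ucma, a matrix protein gene, differed by 1.20 ± 0.14 and Clec3a, a lectin gene, by 1.06 ± 0.18 on the PLC side, both at low levels (3.83 CPM in PLC and 1.79 CPM in ILC, and 1.22 CPM in PLC and 0.56 CPM in ILC, in the median). On the ILC side, Inmt, a methyltransferase, differed by -1.47 ± 0.17, Lnc016 by -1.46 ± 0.16, Otog, otogelin, by -1.35 ± 0.12, and Apobec4 by -1.22 ± 0.17. Dio3, which inactivates thyroid hormone, stood at 0.568 to 2.24 CPM in PLC (median 1.67) and 2.15 to 5.54 CPM in ILC (median 3.49) (-1.12 ± 0.11, edgeR adjusted p = 2.56e-11) with -1.32 to -0.94 in the 4 treatments, and Ikzf2, a zinc finger factor, at 0.675 to 2.89 CPM in PLC (median 1.61) and 1.76 to 5.42 CPM in ILC (median 3.66) (-1.10 ± 0.11). Pkhd1l1 was at -1.08 ± 0.21, led by Maltodextrin (-2.42).

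**Figure D4:**
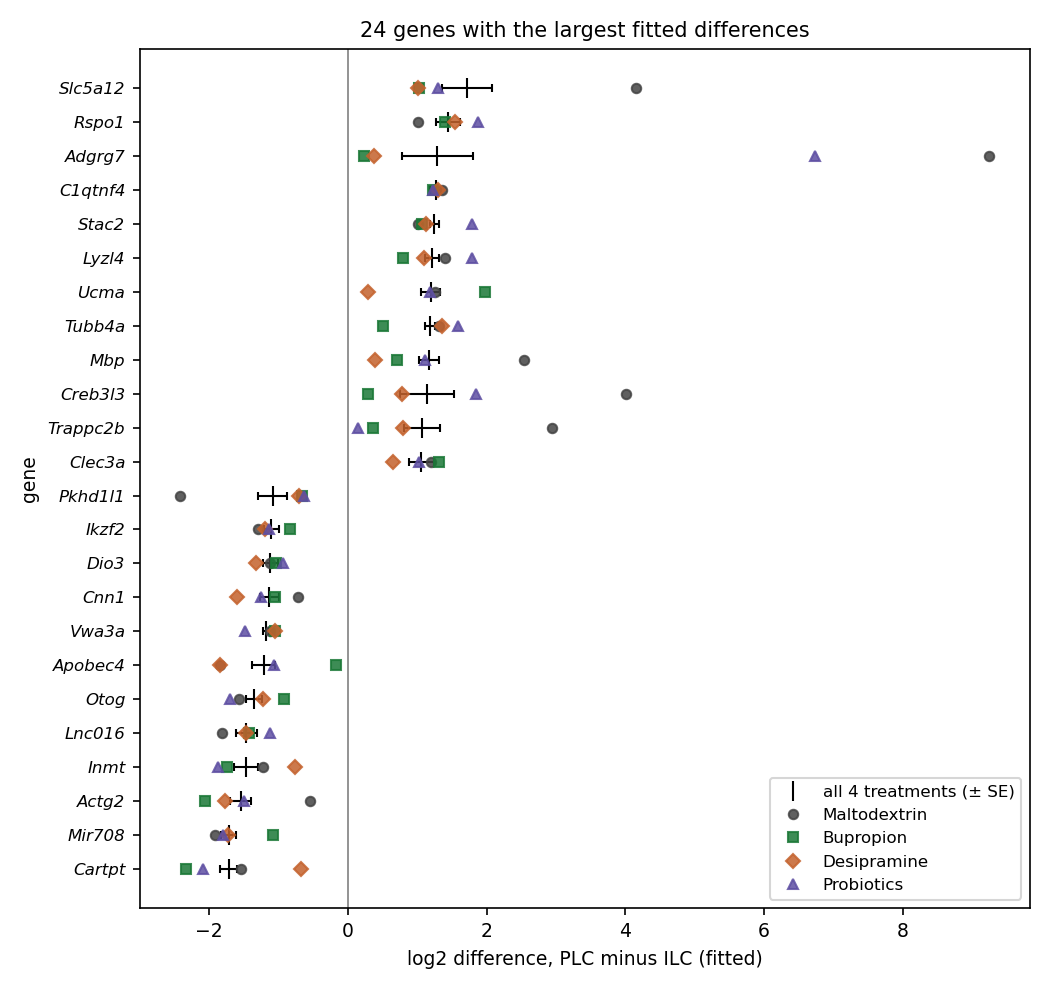
Fitted log2 differences of the 24 genes with the largest values, over all 4 treatments with the standard error (black) and in each treatment (coloured symbols). C1qtnf4 lay between 1.22 and 1.35 in the 4 treatments, and Adgrg7, which was 0 in all ILC libraries of 2 treatments, spread widest.

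The size of the regional difference varied between treatments. Interaction terms were called for 4604 genes (37.7% of those tested), and for 1458 (33.9%) of the 4305 called genes with the same sign. Within single treatments, 6030 genes were called in Maltodextrin (49.4%; 25.9% higher and 23.6% lower in PLC), 2355 in Bupropion (19.3%; 11.7% and 7.65%), 3143 in Desipramine (25.8%; 16.1% and 9.65%) and 3996 in Probiotics (32.8%; 20% and 12.8%). Called within each of the 4 treatments with the same sign were 395 genes higher in PLC (3.24%) and 189 lower (1.55%). The median size of the difference over all genes was 0.23 in Maltodextrin, 0.12 in Bupropion, 0.15 in Desipramine and 0.17 in Probiotics. Of the genes called in Desipramine, 91.8% had the same sign in Maltodextrin, 88.5% in Probiotics and 73.1% in Bupropion, and of those called in Maltodextrin 63.6% had the same sign in Bupropion. No library is shared between treatments, so these shares compare separate samples. Each treatment also differs from the others in any batch that its libraries shared, and batch and treatment cannot be told apart. Libraries of the same region and treatment may also have shared a pool, dissection or batch. Such a shift cannot be told apart from a difference between the regions in that treatment, and its presence was not tested. The p-values count each library as a separate sample and make no allowance for shifts shared within a group.

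Opposite calls in at least 2 treatments were made for 508 genes (4.17%), and the 6 of them with the smallest interaction p are shown. Syn1, the vesicle phosphoprotein synapsin 1, was lower in PLC in Maltodextrin (-0.16) and higher in Bupropion (0.61), Desipramine (0.75) and Probiotics (1.16; adjusted p of the interaction in edgeR = 6.51e-19). In ILC the Syn1 median was 146 CPM in Maltodextrin and 184 CPM in Probiotics, and in PLC 129 and 410 CPM. Rsrp1 was higher in PLC in Maltodextrin (0.48) and Desipramine (0.30) and lower in Bupropion (-0.32) and Probiotics (-0.43), with no overlap in any of the 4 treatments. Gstm1, a glutathione transferase, was called lower in Maltodextrin (-0.81) and higher in Desipramine (0.16). Leng8 ranged from -1.13 in Probiotics to 0.32 in Maltodextrin, Limd2 from -0.24 in Bupropion to 1.24 in Maltodextrin, and Spryd3 from -0.20 to 1.13 in the same treatments.

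**Figure D5:**
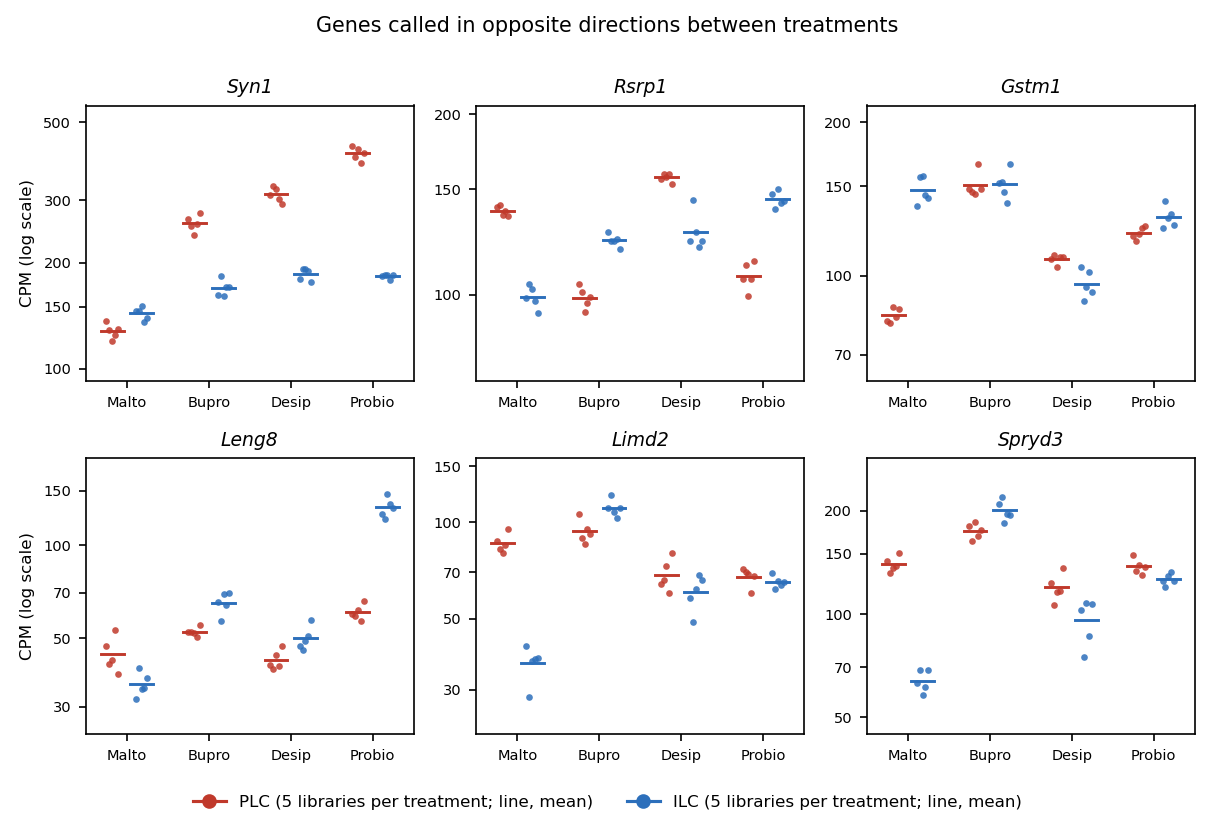
Normalised CPM (log scale) of 6 genes in each of the 40 libraries, by treatment, with group means as lines. The PLC mean of Syn1 lay below the ILC mean in Maltodextrin and above it in Probiotics, with log2 differences of -0.16 and 1.16.

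The Control libraries give a view of the same genes in samples that the comparison did not use, although their ILC libraries stood apart. Over all genes tested, PLC lay above ILC in Control for 54.0% of genes. For the 182 genes higher in PLC without overlap in any of the 4 treatments, it did so for 160 (87.9%), and for the 68 on the ILC side, ILC lay above PLC for 52 (76.5%). In Control, 660 genes were at least 4-fold lower in the ILC libraries than in the PLC libraries. Of these 660, 370 (56.1%) were called higher in PLC with the same sign in the 4 treatments compared, where 19.7% of all genes were, and 14 were called lower. Their median difference was 0.54 in Maltodextrin, 0.51 in Desipramine, 0.30 in Probiotics and 0.16 in Bupropion. Without the 660 genes, a setting chosen after seeing the data, 2030 genes remained called higher and 1891 lower with the same sign. Among genes named here, Arc stood at 0.627 CPM in Control ILC against 34 CPM in Control PLC and Egr1 at 14.6 against 177 CPM, while Fos stood at 15.7 against 20.2 CPM, Nefm at 102 against 226 CPM and Pvalb at 162 against 250 CPM (medians of 5 libraries). What set the Control ILC libraries apart, and its part in the 4 treatments compared, was not tested.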

How the data were processed

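The deposited table holds counts of reads per gene symbol in 300 libraries (10 regions, 6 treatments, 5 libraries each), which the authors made. The submitters' processing notes name FastQC, STAR, HTSeq and the rn6 genome, with no versions. Every library was matched to its label by its column name. Members and gene lists were chosen with earlier results of these data known.

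The 40 libraries of PLC and ILC in 4 treatments were fitted with edgeR 4.0.16 (limma 3.58.1, R 4.3.3): filterByExpr, TMM scaling, a quasi-likelihood model with treatment and region, and Benjamini-Hochberg adjustment over 12197 genes. A model of the 8 group means gave the contrast in each treatment and the interaction. Levels are CPM scaled by TMM over 90 libraries of CGC, PLC and ILC. DESeq2 1.42.0 was an alternative. The models were tried on simulated data in which the regional difference was the same in every treatment. Differences that vary between treatments were not simulated. Named genes are the 12 largest differences in each direction, up to 3 called members of a list in each direction, and the 6 opposite calls with the smallest interaction p; the first and last set needed a mean log2 CPM over 0. Other named genes were chosen after their values were seen. FT and Control entered only the alternative with all 6 treatments, because their ILC libraries stood apart. Counts by symbol cannot separate near-identical copies such as the actins.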

Additional observations from a re-analysis of the deposited data

Results flagged for a closer look

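Among the 24 genes with the largest differences, 16 of 190 groups of 5 libraries held a library far from the other 4, where chance gives about 1 in 20. In PLC Probiotics, replicate 5 stood above the rest with 3.45 CPM of Slc5a12, 6.9 CPM of Adgrg7, 4.17 CPM of Creb3l3 and 1.43 CPM of Trappc2b. In ILC Desipramine, replicate 2 held 2.38 CPM of Trappc2b and 2.38 CPM of Mir708, and replicate 3 held 3.03 CPM of Lnc016. In ILC Maltodextrin, replicate 3 held 140 CPM of Tubb4a, replicate 5 held 1.6 CPM of Actg2 and replicate 2 held 2.81 CPM of Ikzf2. Lyzl4 stood at 1.26 CPM in ILC Probiotics replicate 3 and Cnn1 at 1.42 CPM in ILC Probiotics replicate 4. Cartpt stood at 2.97 CPM in PLC Bupropion replicate 4 and Lnc016 at 1.23 CPM in PLC Probiotics replicate 3. Actg2 stood at 0.974 CPM in PLC Desipramine replicate 4 and Pkhd1l1 at 0.183 CPM in PLC Desipramine replicate 5. What set these libraries apart was not tested.

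For 14 of the same 24 genes the difference between the regions varied between the 4 treatments, against 37.7% of all genes tested. The 24 were picked for their large fitted differences in the same libraries. The adjusted p of the interaction in edgeR was 0.0341 for Slc5a12, 0.0241 for Adgrg7, 0.0436 for Creb3l3 and 0.00319 for Trappc2b. It was 1.83e-05 for Stac2, 0.0104 for Lyzl4, 0.00203 for Ucma, 3.14e-13 for Tubb4a and 1.53e-15 for Mbp. On the ILC side it was 7.51e-07 for Cartpt, 0.00833 for Actg2, 0.00898 for Apobec4, 0.00114 for Vwa3a and 0.0164 for Pkhd1l1. The genes called in opposite directions had the values 6.51e-19 for Syn1, 7.97e-17 for Rsrp1, 1.51e-14 for Gstm1, 4.2e-14 for Leng8, 1.05e-13 for Limd2 and 1.28e-13 for Spryd3.

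Outside the comparison, the libraries labelled ILC in FT held a mean of 232 CPM of Dbh and 107 CPM of Slc6a2, genes of noradrenaline neurons that stayed at or under 1.35 CPM in the groups compared.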

How the results depend on the processing

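Of 203 genes named with a fit, 166 kept direction and call under every alternative other than the use of all 6 treatments. DESeq2 called 3516 genes higher and 2957 lower in PLC, size factors by RLE 3448 and 2963, no filter on low counts 3638 and 3445, and the model of group means 3871 and 3039. Leaving out each of the 40 libraries in turn gave 3449 to 3617 genes higher and 2704 to 2916 lower, 2319 to 2489 and 1837 to 1984 with the same sign, and 182 to 233 and 67 to 98 without overlap. Called genes ranged from 5398 to 6164 in Maltodextrin, 1991 to 2498 in Bupropion, 2456 to 3437 in Desipramine and 3337 to 4152 in Probiotics, and interactions from 4196 to 4868. The genes without overlap in any treatment became 401 higher and 223 lower without Bupropion, and 333 and 121 without Desipramine, where fewer treatments had to be separated. With all 6 treatments as labelled, 1292 genes were higher and 788 lower with the same sign, and 83 and 11 had no overlap. Of the named genes, 27 kept their direction there but lost their call, and 11 gained one. Lost calls included Nefm (0.42, edgeR adjusted p = 0.0789), Nefh (0.27, edgeR adjusted p = 0.359), Nefl (0.19, edgeR adjusted p = 0.195), Pvalb (0.26, edgeR adjusted p = 0.0602) and Drd1 (-0.004, edgeR adjusted p = 0.974). Replicate numbers are shared between the regions, and the main fit did not use them. Of 20 same-numbered pairs, 8 had deviations correlated above 0.1 (median 0.0624, range -0.204 to 0.455). In 9 of the 20 the own number was the best match among the 5 libraries of the other region. That is more than an even spread over the 5 would give. Whether a shared number marks the same rats or pool was not tested. With the replicate number as a block, 3421 genes were higher and 2647 lower, 2383 and 1858 with the same sign, with 5090 interactions; Drd2, Erbb4, Htr5a and Nos1 lost their call and Ttr gained one.

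The direction reversed with all 6 treatments for Acan (-0.105), Agt (-0.103), Aldh1a1 (-0.217), Btg2 (0.399), Cacna1b (0.0496), Cacna1c (0.0605), Cacna1e (0.00864), Chrna7 (0.118), Col1a2 (-0.335), Gad2 (0.0772), Gnb4 (0.0363), Grm5 (0.217), Htr1a (0.0825), Htr2a (0.339), Htr5a (0.132), Leng8 (0.146), Mog (-0.125), Nos1 (0.115), Npy1r (0.167), Nxph4 (-0.329), Scn1a (-0.298), Tenm2 (0.0553) and Tenm4 (0.178). It reversed without Maltodextrin for Actb (-0.0695), Gstm1 (0.00184), Htr2a (0.0197), Limd2 (-0.0273) and Rsrp1 (-0.16), without Bupropion for Col1a2 (-0.124), Gad2 (0.00773), Scn1a (-0.145) and Scn2a (-0.0185), without Desipramine for Rsrp1 (-0.0926), and without Probiotics for Fosb (-0.0149) and Lhx6 (-0.055). With 1 library left out, Col1a2 ranged from -0.0261 to 0.141, Rsrp1 from -0.0116 to 0.0282 and Scn1a from -0.0146 to 0.0245. The cause was not tested. Libraries hold 6246390 to 18192931 counts, and genes near 1 CPM, such as Ntsr1, rest on few reads a library.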

Other observations

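Genes of HCN channels, the hyperpolarisation-activated channels that shape dendritic integration in pyramidal neurons, were higher in PLC: Hcn2 by 0.42 ± 0.061, Hcn3 by 0.29 ± 0.10 and Hcn4 by 0.35 ± 0.13 on the log2 scale (edgeR adjusted p = 2.39e-07, 0.0146 and 0.0223). The call of Hcn4 was lost without PLC Probiotics replicate 4 (edgeR adjusted p = 0.0512), and without all Desipramine (0.21) or all Probiotics libraries (0.32; edgeR adjusted p = 0.2 and 0.103). Hcn3 was -0.052 in Maltodextrin and lost its call without the Bupropion (0.22) or Probiotics (0.27) libraries (edgeR adjusted p = 0.147 and 0.0768). They belong to a list of 28 sodium, calcium and HCN channel genes of which 13 were higher, 8 lower and 7 not called. The shares over all genes tested were 29.2% higher and 23.3% lower. Among the calcium channels, Cacna1a, the P/Q-type pore of presynaptic terminals, was higher (0.31 ± 0.036), while Cacna1b, the N-type pore, Cacna1c, an L-type pore, and Cacna1e, the R-type pore, were lower (-0.13 ± 0.028, -0.18 ± 0.038 and -0.31 ± 0.041), though Cacna1e was 0.028 in Bupropion.

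Of 17 genes of perineuronal nets and extracellular matrix, 7 were higher, 3 lower and 7 not called. Hapln2, a link protein at nodes of Ranvier, was higher (0.87 ± 0.12), and Tnc, the matrix protein tenascin C, and Lum, lumican, were lower (-0.78 ± 0.078 and -0.50 ± 0.082). Of 8 genes shared by GABAergic neurons, 5 were higher, 0 lower and 3 not called, with Slc32a1, the vesicular GABA transporter, at 0.38 ± 0.04. In the stress peptide and steroid receptor list, 6 of 12 were higher, 1 lower and 5 not called. Beside these lists stand 29.2% higher and 23.3% lower over all genes tested.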
